A study of Mus musculus with 4 samples.

Results

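The 10 genes described here encode PIWI proteins and factors that make or use PIWI-interacting RNAs (piRNAs) in mouse testis: PIWIL1, PIWIL2, PIWIL4, MAEL, FKBP6, GTSF1, MOV10L1, ASZ1, PLD6 and DDX4. They were taken by symbol, with earlier results of these data known, and all 10 were found among the 112302 entries that each library lists. RNA labelled as testis of the BALB/C strain was sequenced in 4 libraries. A single library stands for each of the fetal stages E14 and E18 (embryonic days 14 and 18) and of the postnatal ages of 3 weeks and 6 months. All 4 RNAs were bought as total RNA from a supplier, carry no named mutation or treatment, and the labels do not say how many animals were pooled. The levels are RPKM, which scales reads by gene length and library size, and rest on between 33952471 reads at 3 weeks and 38903334 reads at E14. With 1 library per stage there is no replicate: every interval printed is a 95% counting interval of reads in that library, and no p-value can be given.

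piRNAs are small RNAs of the germ line that guide PIWI proteins to complementary transcripts, above all those of transposons. In fetal male germ cells PIWIL2 (MILI) cleaves transposon transcripts in the cytoplasm, while PIWIL4 (MIWI2) enters the nucleus and directs DNA methylation of transposons. In meiotic spermatocytes a second, abundant population appears, the pachytene piRNAs, which load PIWIL1 (MIWI) and PIWIL2. The remaining members act around these proteins: MOV10L1 is an RNA helicase that binds piRNA precursors, PLD6 (Zucchini in flies) is a mitochondrial surface enzyme that cuts them, and ASZ1 is a scaffold at the same surface. DDX4 (VASA) is the helicase that marks germ granules, MAEL is a germ-granule protein needed for transposon silencing, FKBP6 is a chaperone partner of the PIWI proteins, and GTSF1 is a small zinc-finger protein that assists PIWI cleavage.

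Promoter windows show a sequence feature that was not used to choose the genes. RefSeq windows on GRCm38.p6, from 250 bases before to 50 after a transcript start, were given for 9 of the 10 members in 12 windows, PIWIL2 being the exception. The E-box CACGTG, which reads the same on both strands, lay in at least 1 window of 6 of the 9: PIWIL1, MAEL, FKBP6, MOV10L1, PLD6 and DDX4. It lay in a window of 8.09% of all 27025 genes in the same table and of 9.18% of its 16522 protein-coding genes. The segments below show each site in capitals, 5′ to 3′ on the strand of the gene. PIWIL4, one of the members without such a site, is also shown. It was picked with its levels known, and no link between the site and the levels was tested.
PIWIL1: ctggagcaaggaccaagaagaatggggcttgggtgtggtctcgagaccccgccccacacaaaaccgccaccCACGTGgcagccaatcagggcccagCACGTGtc
MAEL: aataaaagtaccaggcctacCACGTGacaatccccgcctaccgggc
FKBP6: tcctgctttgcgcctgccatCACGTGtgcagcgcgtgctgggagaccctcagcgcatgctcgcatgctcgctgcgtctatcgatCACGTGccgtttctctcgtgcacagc
MOV10L1: ccttCACGTGctaaccgccaacctctcgtg
PLD6: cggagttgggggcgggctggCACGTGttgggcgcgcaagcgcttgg
DDX4: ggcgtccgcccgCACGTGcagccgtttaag
PIWIL4: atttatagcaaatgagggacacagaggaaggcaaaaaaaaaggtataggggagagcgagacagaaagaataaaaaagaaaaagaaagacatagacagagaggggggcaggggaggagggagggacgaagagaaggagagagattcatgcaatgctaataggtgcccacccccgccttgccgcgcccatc

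These segments lie at chr5:128735996-128736099 on the plus strand for PIWIL1, chr1:166238942-166238987 on the minus strand for MAEL and chr5:135350056-135350165 on the minus strand for FKBP6. The PIWIL1 segment lies well inside the annotated gene (chr5:128702524-128755474), because the RefSeq start used for its window is at position 128736246. Those of MOV10L1, on the plus strand, and PLD6, on the minus strand, lie at chr15:88982744-88982773 and chr11:59787665-59787710. The DDX4 segment, on the minus strand, lies at chr13:112652322-112652351 and falls inside the leading exon of an annotated DDX4 transcript, upstream of the RefSeq start used for the window. The PIWIL4 segment lies at chr9:14740734-14740922 on the minus strand, just upstream of the annotated gene. PIWIL1 and FKBP6 each held 2 sites. From the start of the site to the start of transcription, the distances were 179 and 154 bases in PIWIL1, 101 and 37 in FKBP6, 223 in MAEL, 246 in MOV10L1, 33 in PLD6 and 29 in DDX4. FKBP6 has 2 RefSeq starts, and the one nearest to the annotated gene start was taken; from the other, its sites lie at 232 and 168 bases. PLD6 also has 2, and the window of the other held no site.

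ASZ1, GTSF1 and PIWIL4 held no CACGTG in these windows, which says nothing of sites elsewhere. The member windows were rich in CG, with a median of 19 CG dinucleotides against 14 in all protein-coding windows. Among the 8409 protein-coding windows with at least 18 CG, the lowest number in a member window with an E-box, 11.7% held CACGTG. Of 28 other piRNA pathway genes listed, 20 had a window and 4 of these held the E-box (TDRD1, TDRD9, DNMT3L and WDR77). Of the other 4 patterns searched on both strands, the MYB core AACNG lay in 8 of 9 members and 82.4% of all genes, and AACNGTC, which contains it, in 2 of 9 and 9.17%. The E2F core GGCGGGA lay in 2 of 9 members and 12.7% of genes, and GCGGGA, which overlaps it, in 2 of 9 and 22.1%. The patterns were chosen with the levels known, and a match is a description of letters, not of a bound site.

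Before the levels, the libraries were set against markers of the cells a testis holds. In the library labelled E14, 6 of 10 Sertoli cell markers were under 1 RPKM and FSHR was at 0, and the summed Sertoli markers came to 13.3 RPKM, against 137, 126 and 112 RPKM at E18, 3 weeks and 6 months. All 8 of the matched germ cell markers were under 1 RPKM there, as were 5 of the 8 at E18. Of 10 fetal germ cell markers, NANOS2, DPPA4 and DPPA2 were at 0 at E14, whereas SOX2 (1.16 RPKM) and KIT (1.90 RPKM), which other tissues also express, were over 1 RPKM, and the list summed to 4.63, 7.14, 5.50 and 4.81 RPKM over the 4 stages. Markers of other tissues were high at E14: the 6 skeletal muscle markers summed to 191, 45.3, 1.05 and 0.811 RPKM over the 4 stages, the 6 liver markers to 302, 59.3, 0.673 and 0.990 RPKM, and the 6 cartilage markers to 83.1, 1.31, 12.9 and 40.4 RPKM. Of the cartilage sums, COMP alone gave 10.8 RPKM at 3 weeks and 38.8 RPKM at 6 months. XIST, which coats an inactive X chromosome, stood at 12.7 RPKM at E14, against 0.124, 0.158 and 0.0312 RPKM in the later libraries. The Y-linked DDX3Y was also present, at 1.47, 4.70, 3.46 and 0.923 RPKM over the 4 stages. At E18 the 6 kidney tubule markers summed to 32.9 RPKM, against at most 2.04 RPKM in the other 3 libraries. The values for E14 are therefore given as those of the library labelled E14. Whether the libraries labelled E14 and E18 hold testis alone was not tested, nor was the part of these markers in each comparison.

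**Figure D1:**
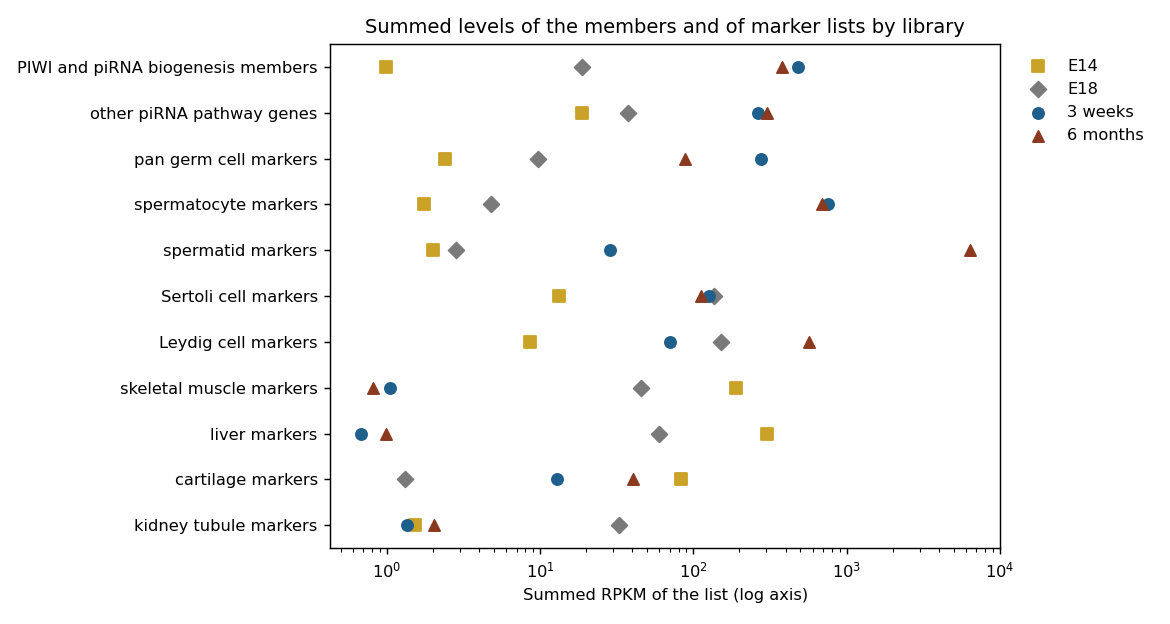
Summed RPKM (log axis) of the 10 PIWI and piRNA biogenesis genes, of other piRNA pathway genes and of cell type marker lists, with 1 symbol per library. The 10 genes sum to 0.986, 18.8, 484 and 378 RPKM at E14, E18, 3 weeks and 6 months, while muscle, liver and cartilage markers are highest at E14.

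Of the PIWI genes, PIWIL1 and PIWIL2 were highest at 3 weeks and PIWIL4 at E18. PIWIL1 (chr5:128702524-128755474, plus strand, GRCm38) had 0.0254, 0.152, 60.3 and 30.6 RPKM at E14, E18, 3 weeks and 6 months, from 4, 21, 8289 and 4434 reads. It was close to the lowest of the 10 in both fetal libraries and ranked 115th of 18716 protein-coding symbols at 3 weeks. Here and below, protein-coding symbols leave out predicted (Gm-numbered) and Riken-numbered names, so a rank is not one among all protein-coding genes. Its level at 3 weeks was 398 times that at E18 (interval 260 to 643), the largest such ratio of the 10 genes.

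PIWIL2 (chr14:70372477-70429383, minus strand) had 0.0471, 2.05, 17.2 and 9.06 RPKM in the same order, from 9, 344, 2872 and 1593 reads. It was the highest of the 3 PIWI genes at E18, and its level at 3 weeks was 8.42 times that at E18 (7.52 to 9.44). Its level at E18 was thus 11.9% of that at 3 weeks (10.6 to 13.3), against 0.251% for PIWIL1 (0.155 to 0.384).

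PIWIL4 (chr9:14696230-14740733, minus strand) had 0.0430, 0.483, 0.104 and 0.0363 RPKM, from 9, 89, 19 and 7 reads. It never reached 1 RPKM, the minimum set for the comparisons, so it is described by its levels and takes no part in the counts below. Its level at 3 weeks was 0.215 times that at E18 (0.124 to 0.356), and its level at 6 months was 0.0752 times that at E18 (0.0294 to 0.161). It was the only member whose highest value came from a fetal library, and its interval at E14 (0.0196 to 0.0816 RPKM) overlapped those at 3 weeks (0.0626 to 0.162 RPKM) and 6 months (0.0146 to 0.0748 RPKM). An annotated antisense gene, GM10706, overlaps PIWIL4 and had 0.0131, 0.104, 0.0451 and 0.0143 RPKM over the 4 stages, so it too was highest at E18. A processed pseudogene on the opposite strand, GM15586, also overlaps PIWIL4, with 0.167 RPKM at 3 weeks and 0 elsewhere. How strand was treated in counting is not known, and the part of these entries in the level of PIWIL4 was not tested.

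**Figure D2:**
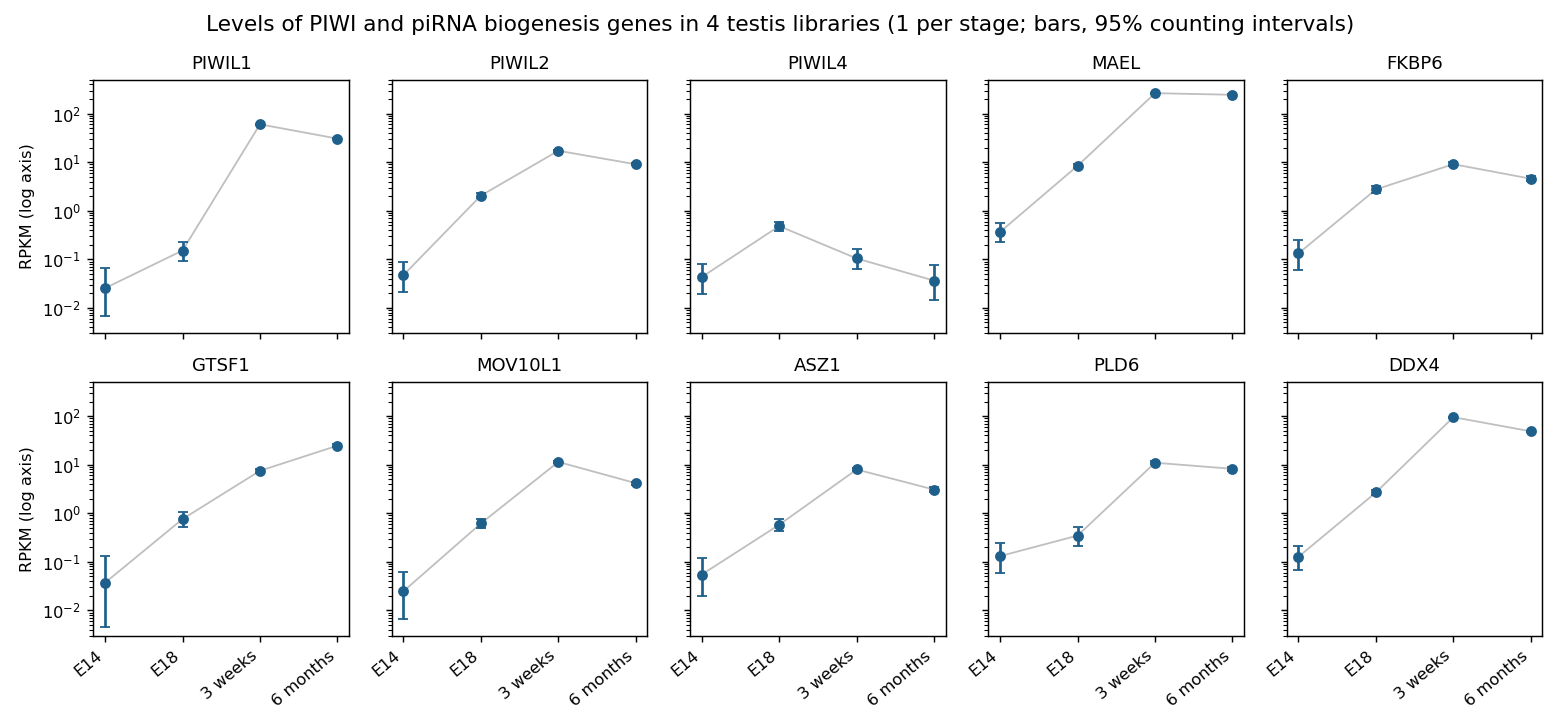
RPKM (log axis) of each of the 10 genes in the 4 libraries, 1 library per stage, with exact 95% Poisson intervals of the reads as bars. Of the 10 genes, 8 are highest at 3 weeks, GTSF1 is highest at 6 months (24.7 RPKM) and PIWIL4 at E18 (0.483 RPKM).

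The make-up of the PIWI transcripts turned over between the fetal and the postnatal libraries. At E18, PIWIL2 gave 76.3% of the summed PIWI RPKM of 2.68, PIWIL4 18.02% and PIWIL1 5.66%. At 3 weeks, PIWIL1 gave 77.7% of a sum of 77.6 RPKM, PIWIL2 22.2% and PIWIL4 0.134%. At 6 months the sum was lower, at 39.7 RPKM, but the shares were close to those at 3 weeks: 77.1% for PIWIL1, 22.8% for PIWIL2 and 0.0915% for PIWIL4. PIWIL1 stood at 3.38 times PIWIL2 at 6 months (3.19 to 3.58) and 3.50 times at 3 weeks (3.36 to 3.66), so the intervals overlapped. At E18 the same ratio was 0.0741 (0.0453 to 0.115). At E14 the shares rest on 22 reads in all, and the ratio of PIWIL1 to PIWIL2 had an interval of 0.121 to 1.93.

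**Figure D3:**
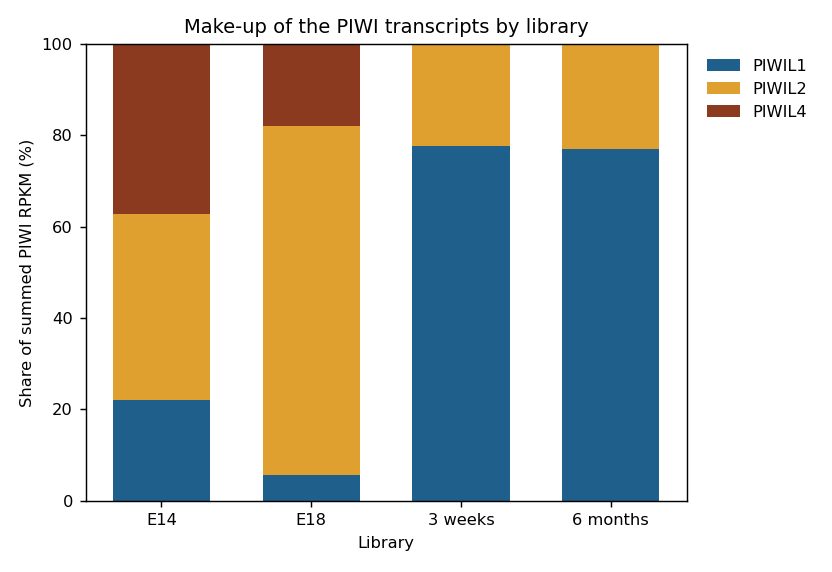
Share of the summed RPKM of PIWIL1, PIWIL2 and PIWIL4 held by each gene, in percent, by library. PIWIL2 holds 76.3% at E18 and PIWIL1 holds 77.7% at 3 weeks and 77.1% at 6 months; PIWIL4 is too small to see in the postnatal bars (0.134% and 0.0915%), and the E14 bar rests on few reads.

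DDX4 and MAEL were the most abundant members after birth. DDX4 (chr13:112598333-112652475, minus strand) had 0.126, 2.68, 95.2 and 48.6 RPKM over the 4 stages, from 14, 261, 9208 and 4962 reads. Among protein-coding symbols it ranked 13578th at E14, 4484th at E18 and 51st at 3 weeks. Its level at 3 weeks was 35.6 times that at E18 (31.4 to 40.4).

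MAEL (chr1:166201201-166238747, minus strand) had 0.366, 8.43, 264 and 245 RPKM, from 22, 446, 13871 and 13546 reads. It was the highest of the 10 in all 4 libraries and ranked 20th among protein-coding symbols at 3 weeks and 28th at 6 months. MAEL alone gave 37.1%, 44.8%, 54.6% and 64.8% of the summed RPKM of the 10 genes at E14, E18, 3 weeks and 6 months. Its level at 6 months was 0.926 times that at 3 weeks (0.904 to 0.948), the closest to equal of the 10.

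Genes of precursor binding and cutting stood far below MAEL after birth. MOV10L1 (chr15:88982909-89055152, plus strand) had 0.0246, 0.615, 11.4 and 4.15 RPKM, from 4, 88, 1619 and 622 reads. ASZ1 (chr6:18050964-18109061, minus strand) had 0.0545, 0.578, 7.95 and 3.06 RPKM, from 6, 56, 764 and 310 reads. Both had lower values at 6 months, with ratios of 6 months to 3 weeks of 0.364 for MOV10L1 (0.332 to 0.400) and 0.385 for ASZ1 (0.336 to 0.440). Of the other members, only PIWIL4 had a lower ratio, 0.349 (0.124 to 0.868), from few reads.

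PLD6 (chr11:59783897-59787645, minus strand) had 0.130, 0.346, 11.0 and 8.21 RPKM, from 9, 21, 660 and 521 reads. Although it works at the same membrane as ASZ1, its ratio of 6 months to 3 weeks was 0.749 (0.666 to 0.841), an interval that did not overlap that of ASZ1. Its level at E18 was 3.16% of that at 3 weeks (1.94 to 4.87), below the 7.27% of ASZ1 (5.44 to 9.54).

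FKBP6 (chr5:135291704-135350044, minus strand) had 0.132, 2.75, 9.10 and 4.57 RPKM, from 9, 165, 542 and 287 reads. It stood behind MAEL alone at E18 and behind 6 members at both postnatal stages. Its level at E18 was 30.2% of that at 3 weeks (25.2 to 36.0), the highest such share after PIWIL4 (465%, 281 to 808).

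GTSF1 (chr15:103402405-103430470, minus strand) had 0.0370, 0.757, 7.48 and 24.7 RPKM, from 2, 36, 353 and 1228 reads. It was the one member whose level was still higher at 6 months, at 3.30 times that at 3 weeks (2.93 to 3.72). In the order of levels it stood behind 3 of the other members at 6 months and behind 8 at 3 weeks. In the levels at 3 weeks, neighbours with overlapping intervals were MOV10L1 and PLD6, FKBP6 and ASZ1, and ASZ1 and GTSF1. At 6 months these were PIWIL2 and PLD6, and FKBP6 and MOV10L1. At E18 they were FKBP6 and DDX4, and each neighbouring pair from GTSF1 down through MOV10L1, ASZ1, PIWIL4 and PLD6 to PIWIL1.

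For calls across all genes, a gene was taken as higher or lower where log2(RPKM + 1) differed by 1 or more, which is 2-fold on this scale, among the 42964 entries that reached 1 RPKM in at least 1 library. The pseudocount of 1 understates the change of low genes. Of the 10 members, 9 passed this minimum. Of these, PIWIL1, GTSF1, MOV10L1, ASZ1 and PLD6 reached it only in the postnatal libraries, so the filter favours a higher call there. PIWIL4, whose levels after birth were below that at E18, was left out by it. The 4 comparisons share libraries, so they are not independent of each other. In all of them, fewer cells of a type and less RNA per cell cannot be told apart in whole tissue.

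At E18 against E14, 4 of the 9 members were higher and 0 lower, where 2.17% of all entries were higher and 1.34% lower. The count was 8 with a pseudocount of 0.1, where 7.46% of all entries were higher, and 1 with a 4-fold limit, where 0.275% were. The 4 were MAEL (log2 difference 2.79), FKBP6 (1.73), DDX4 (1.71) and PIWIL2 (1.54). The other 5 had differences between 0.17 for PIWIL1 and 0.76 for GTSF1, from few reads. The median over the 9 was 0.76, against 0.03 over all entries. On the ratio scale all 10 were higher at E18 than in the library labelled E14, from 2.65-fold for PLD6 (1.16 to 6.58) to 43.4-fold for PIWIL2 (22.6 to 95.8). The share of all entries that were higher on that scale is not given here. The 8 matched germ cell markers summed to 9.73 RPKM at E18, against 2.38 RPKM at E14, and of the 5 that passed the minimum 3 were higher and 0 lower. Single markers differed: DAZL, an RNA-binding protein of germ cells, stood at 3.53 RPKM at E18 and 0.0995 RPKM at E14, and NANOS3 at 0.360 RPKM at E18 and 0.845 RPKM at E14. The somatic Sertoli and Leydig cell markers moved with the members, with sums of 137 RPKM at E18 against 13.3 RPKM at E14 for Sertoli cells, and 151 RPKM against 8.57 RPKM for Leydig cells; their part in the result was not tested. The share of higher among all called entries, 61.9%, was 46.7% under median-of-ratios scaling.

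At 3 weeks against E18, 9 of 9 members were higher and 0 lower, where 32.0% of all entries were higher and 10.5% lower. Among 11819 protein-coding symbols past the minimum, 22.7% were higher and 13.8% lower. The differences ran from 1.43 for FKBP6 and 2.27 for GTSF1 to 4.71 for DDX4, 4.81 for MAEL and 5.73 for PIWIL1, with a median of 2.94 against 0.46 over all entries. Only 0.338% of protein-coding symbols had a difference as large as that of PIWIL1, while 14.2% had one as large as that of FKBP6. Spermatocyte markers moved with them: the 10 summed to 757 RPKM at 3 weeks, against 4.75 RPKM at E18, and all 10 were higher. The matched germ cell markers summed to 275 RPKM against 9.73 RPKM, with 4 of the 5 passing the minimum higher. Spermatogonial markers summed to 88.4 RPKM against 9.68 RPKM, with 4 of 7 passing higher. Spermatid markers summed to 28.3 RPKM against 2.82 RPKM, with 6 of 10 higher. The fetal germ cell markers summed to 5.50 RPKM against 7.14 RPKM, with 0 of 4 passing higher or lower. The 10 Sertoli markers summed to 126 RPKM at 3 weeks and 137 RPKM at E18, with 2 higher and 3 lower. The 8 Leydig markers summed to 70.0 RPKM against 151 RPKM, with 4 lower, and the 6 kidney tubule markers to 1.36 RPKM against 32.9 RPKM, with all 6 lower. The part of these markers in the result was not tested. The share of higher among all called entries, 75.2%, was 94.97% under scaling to ribosomal protein genes and 64.5% under scaling to protein-coding genes. Under each, 9 of 9 members were higher, where 51.0% and 27.1% of all entries were higher in that order.

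**Figure D4:**
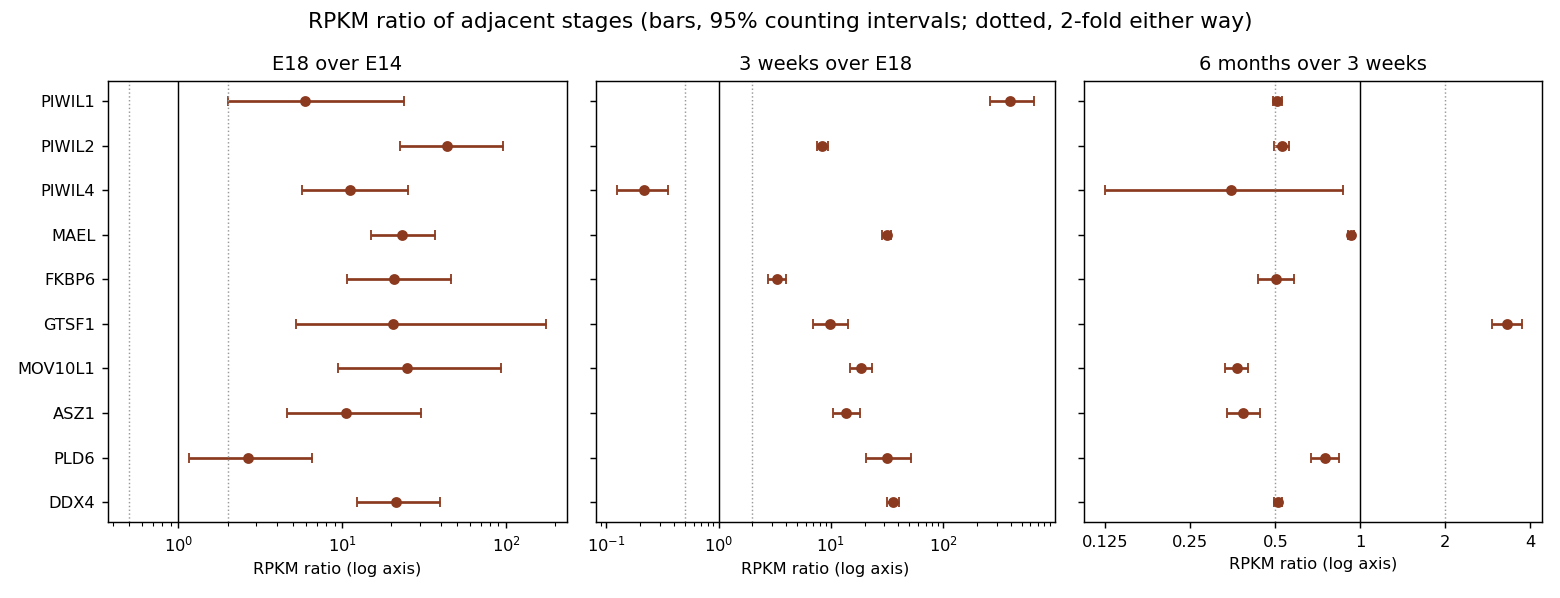
RPKM ratios of the later over the earlier library for each of the 10 genes and adjacent stages (log axes that differ between panels), with exact 95% intervals as bars, a solid line at equal levels and dotted lines at 2-fold. PIWIL1 has the largest ratio of 3 weeks over E18 (398) and PIWIL4 the one ratio below 1 there (0.215), while GTSF1 alone lies above 1 at 6 months over 3 weeks (3.30).

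At 6 months against 3 weeks, 1 member was higher and 2 were lower, where 9.73% of all entries were higher and 14.1% lower. GTSF1 was higher (1.60), and MOV10L1 (-1.27) and ASZ1 (-1.14) were lower. The lower calls depended on scaling: 0 members were lower with median-of-ratios scaling and 5 with protein-coding scaling, where PIWIL1, PIWIL2 and DDX4 joined them, while GTSF1 remained higher under both. Of all entries, 6.89% were lower under the former scaling and 16.8% under the latter. PIWIL1 (-0.96), DDX4 (-0.95), FKBP6 (-0.86) and PIWIL2 (-0.86) lay just inside the limit. MAEL (-0.11) and PLD6 (-0.38) differed least, and their sign turned positive under median-of-ratios scaling (0.33 and 0.02), as did that of MAEL under ribosomal protein scaling (0.02). The median was -0.86, against -0.31 over all entries. The share of higher among all called entries was 40.8%, and 67.8% under median-of-ratios scaling. The 10 spermatid markers summed to 6379 RPKM at 6 months, against 28.3 RPKM at 3 weeks, and the 10 spermatocyte markers to 694 RPKM against 757 RPKM; their part in these differences was not tested.

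At 6 months against E18, 8 of 9 members were higher and 0 lower, where 32.9% of all entries were higher and 15.4% lower. FKBP6 was the exception, at 4.57 RPKM at 6 months against 2.75 RPKM at E18, a ratio of 1.66 (1.37 to 2.03) and a log2 difference of 0.57. The median difference of the members was 2.77, against 0.20 over all entries. PIWIL1 had the largest difference (4.78), followed by MAEL (4.70) and GTSF1 (3.87). With a 4-fold limit, 5 of 9 were higher, where 18.1% of all entries were higher. All 10 spermatocyte markers were higher too, with a sum of 694 RPKM at 6 months against 4.75 RPKM at E18. All 10 spermatid markers were higher, with 6379 RPKM against 2.82 RPKM. The matched germ cell markers summed to 88.6 RPKM against 9.73 RPKM, with 4 of 5 passing higher. Spermatogonial markers summed to 126 RPKM against 9.68 RPKM, with 2 of 7 passing higher. Fetal germ cell markers summed to 4.81 RPKM against 7.14 RPKM, with 0 of 4 passing higher or lower. The kidney tubule markers summed to 2.04 RPKM against 32.9 RPKM. The part of these markers in the result was not tested. The share of higher among all called entries, 68.2%, was 91.6% under ribosomal protein scaling and 53.7% under protein-coding scaling. FKBP6 passed the limit under ribosomal protein scaling (1.55), which made 9 of 9 higher, and 8 were higher under the other 2 scalings.

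Ratios within a library do not depend on the scaling between libraries, and DDX4 was used as the common denominator. Between 6 months and 3 weeks, the intervals overlapped for PIWIL1, PIWIL2 and FKBP6. Of these, FKBP6 rests on the fewest reads, 287 at 6 months and 542 at 3 weeks. PIWIL1 stood at 0.629 of DDX4 at 6 months (0.604 to 0.655) and 0.634 at 3 weeks (0.615 to 0.653). PIWIL2 stood at 0.186 (0.176 to 0.197) and 0.181 (0.173 to 0.189). FKBP6 stood at 0.0939 (0.0831 to 0.106) and 0.0956 (0.0875 to 0.104).

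The others parted from DDX4 in both directions. MOV10L1 was at 0.0854 of DDX4 at 6 months (0.0784 to 0.0928) and 0.120 at 3 weeks (0.114 to 0.126), and ASZ1 at 0.0629 (0.0559 to 0.0706) and 0.0836 (0.0775 to 0.0900). PLD6 was at 0.169 at 6 months (0.154 to 0.185) and 0.115 at 3 weeks (0.106 to 0.125), and MAEL at 5.03 (4.87 to 5.20) and 2.78 (2.70 to 2.85). GTSF1 moved furthest, to 0.507 of DDX4 at 6 months (0.476 to 0.540), against 0.0786 at 3 weeks (0.0705 to 0.0874). For PIWIL4 the intervals overlapped, since it rests on 7 reads at 6 months and 19 reads at 3 weeks.

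The proportions at E18 were different again for most members. FKBP6 was level with DDX4 at E18, at 1.03 (0.840 to 1.25), and PIWIL2 stood at 0.764 (0.649 to 0.901), both far above their proportions at 3 weeks. PIWIL1 stood at 0.0566 of DDX4 at E18 (0.0345 to 0.0884), below its proportion at 3 weeks. GTSF1 stood at 0.283 of DDX4 at E18 (0.194 to 0.402), above its 0.0786 at 3 weeks and below its 0.507 at 6 months. For MAEL and PLD6 the intervals at the 2 stages overlapped, with 2.78 at 3 weeks and 3.15 at E18 (2.70 to 3.68) for MAEL, and 0.115 at 3 weeks and 0.129 at E18 (0.0787 to 0.202) for PLD6.

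**Figure D5:**
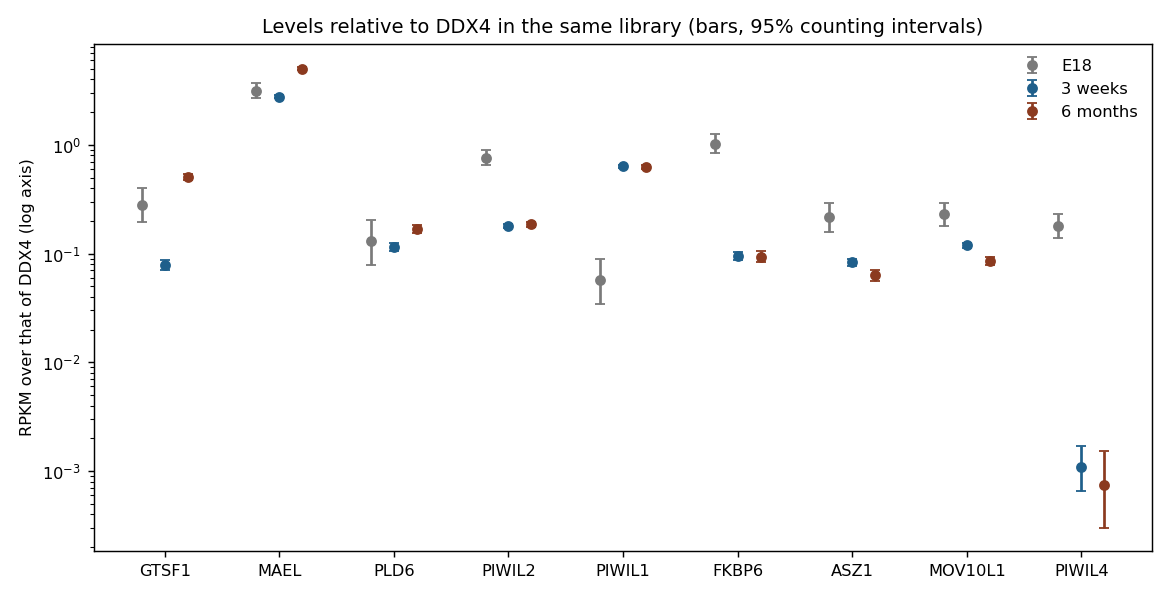
RPKM of 9 genes divided by that of DDX4 in the same library (log axis), with exact 95% intervals as bars, at E18, 3 weeks and 6 months. PIWIL1, PIWIL2 and FKBP6 have nearly the same ratio at 3 weeks and 6 months, GTSF1, MAEL and PLD6 are higher at 6 months, and MOV10L1 and ASZ1 are lower.

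How the members stood against other germ cell genes at 6 months depended on the gene taken. Of the germ cell markers, 5 passed the minimum, and their ratios of 6 months to 3 weeks were 0.0654 for RHOX10 (0.00756 to 0.259), 0.257 for SYCP3 (0.243 to 0.271), 0.260 for DAZL (0.244 to 0.276), 0.426 for TEX101 (0.404 to 0.450) and 0.615 for TEX14 (0.568 to 0.665). The ratios of DDX4, PIWIL1, PIWIL2 and FKBP6, between 0.502 and 0.526, lay between those of TEX101 and TEX14. Those of MOV10L1 and ASZ1 lay above SYCP3 and DAZL and below TEX14. Those of PLD6 (0.749), MAEL (0.926) and GTSF1 (3.30) lay above all 5 markers, although the interval of PLD6, from 0.666, only just cleared that of TEX14.

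The likeness of the patterns was measured as the share of a gene's RPKM that would have to move between the 4 libraries to match another gene, from 0 for the same pattern to 1. Among the members, PIWIL1 and DDX4 were closest, at 0.0172, and MOV10L1 and ASZ1 next, at 0.0211. PIWIL4 was farthest from all others, at 0.615 or more from each. Among protein-coding symbols outside the list with a highest RPKM within 4-fold, BC049730 (0.00213), CETN4 (0.00684) and GML (0.00815) were nearest to PIWIL1, and they stayed so with E14 left out. BRDT (0.00775), a bromodomain protein of spermatocytes and spermatids, was nearest to DDX4, followed by BC049730 (0.0150) and CCDC38 (0.0160). Nearest to PIWIL2 were ARL14EPL (0.0132), DNAJC28 (0.0234) and the piRNA helicase TDRD9 (0.0288), and nearest to PIWIL4 were PLSCR2 (0.0217), SULT1C2 (0.0352) and BST1 (0.0436). With E14 left out, CDC42EP3, BECN1 and PCGF6 were nearest to PIWIL2, VEGFC, EDA2R and FRK to PIWIL4, and BRDT, CCDC38 and CNTD1 (0.0133) to DDX4, where CNTD1 took the place of BC049730.

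Of 28 other genes of the piRNA pathway, 27 were found and 26 passed the minimum. At E18 against E14, 6 were higher and 0 lower, with a median difference of 0.39, where 2.17% of all entries were higher and 1.34% lower. The count was 15 with a pseudocount of 0.1, 3 under ribosomal protein scaling and 1 with a 4-fold limit. The largest were TEX19.1 (2.18, with 3.78 RPKM at E18 and 0.0549 RPKM at E14), TEX19.2 (1.52), a close copy of it whose reads may have been shared, and SPOCD1 (1.52), a partner of PIWIL4 in DNA methylation. At 3 weeks against E18, 16 were higher and 0 lower, with a median of 2.14, where 32.0% of all entries were higher and 10.5% lower. They were led by TCFL5 (4.29), a transcription factor of spermatocytes, at 42.7 RPKM against 1.24 RPKM, and by TDRD1 (3.70) and TDRD12 (3.53), Tudor-domain proteins that bind PIWI proteins or their partners.

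At 6 months against 3 weeks, 1 of the 26 was higher and 5 lower, with a median of -0.61, where 9.73% of all entries were higher and 14.1% lower, so these counts lie near the background. The higher one was GTSF1L (4.07), a relative of GTSF1, at 120 RPKM at 6 months against 6.19 RPKM at 3 weeks, a ratio of 19.3 (16.7 to 22.5). GTSF1L thus stood at 4.85 times GTSF1 at 6 months (4.55 to 5.18) and 0.828 times at 3 weeks (0.689 to 0.992). The largest lower differences were those of MYBL1 (-1.50), the transcription factor of pachytene piRNA genes, at 5.19 RPKM against 16.5 RPKM, TDRKH (-1.39) and TDRD1 (-1.36). At 6 months against E18, 16 were higher and 0 lower, with a median of 1.20, where 32.9% of all entries were higher and 15.4% lower, and GTSF1L (6.82), TCFL5 (4.15) and TDRD6 (3.15) led. TDRD6 was listed at 0 at E18 and stood at 7.89 RPKM at 6 months.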

How the data were processed

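RNA labelled as testis was measured in 4 libraries, 1 per stage. The deposited values are RPKM, made by the authors; Per the submitters' processing notes, TopHat2 and mm10 were used. Per the labels' protocols, ribosomal RNA was depleted, polyadenylated RNA was isolated and libraries were directional. How reads were counted, with which annotation and whether by strand is not given in the sources used here.

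Whole reads were recovered from the steps between low RPKM values, with denominators of 38903334 (E14), 34228140 (E18), 33952471 (3 weeks) and 35801602 (6 months) reads and a relative tolerance of 1e-09; the procedure was tested on simulated data. At these depths 3 reads in 1 kb correspond to 0.0771, 0.0876, 0.0884 and 0.0838 RPKM in the same order. Levels have exact Poisson intervals and ratios exact Clopper-Pearson intervals, both at 95%. These intervals hold the counting error of reads alone, because 1 library per stage shows no variation between animals or libraries. They may be too narrow even for counting error, because PCR copies are not separate molecules. Differences are log2(RPKM + 1) of the later minus the earlier library. With 1 library per stage nothing was tested.

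Coordinates are those of GENCODE vM21 on GRCm38, the assembly of mm10. Protein-coding symbols are its protein-coding gene names without predicted (Gm-numbered) or Riken-numbered names. The promoter windows are from RefSeq. All 10 members are named with every value. Of the other pathway genes, up to 3 of the largest differences in each direction are named, and for PIWIL1, PIWIL2, PIWIL4 and DDX4 the 3 nearest patterns. Markers named outside this rule were chosen after their values were seen. The members and lists were chosen with earlier results of these data known. Alternatives were a pseudocount of 0.1, 3 rescalings, no filter, a minimum of 5 RPKM, E14 left out of the filter and a 4-fold limit. Python 3.11.15, pandas 2.3.3, numpy 2.4.6, scipy 1.17.1 and matplotlib 3.10.9 were used.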

Additional observations from a re-analysis of the deposited data

How the results depend on the processing

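Of the counts of members called, 57 of 64 alternative values stayed within 1.5 times the reported count. Those with no filter, a minimum of 5 RPKM or E14 left out of the filter could not move. All 9 passing members exceeded 5 RPKM in a postnatal library, and PIWIL4 lay within the limit in every comparison. The 57 of 64 therefore overstates how steady the counts are. With a pseudocount of 0.1, 8 members were higher at E18 against E14, where 4 were higher with a pseudocount of 1. Of all entries, 7.46% were higher with the former and 2.17% with the latter. With a 4-fold limit, 1 member was higher at E18 against E14, 0 were higher and 0 lower at 6 months against 3 weeks, and 5 were higher at 6 months against E18. The shares of all entries at this limit were 0.275% higher, 3.20% higher and 1.80% lower, and 18.1% higher in the same order. At 6 months against 3 weeks, 0 members were lower under median-of-ratios scaling and 5 under protein-coding scaling, where 6.89% and 16.8% of all entries were lower. The scalings moved the median of all entries: median of ratios by -0.10 at E18 against E14, 0.29 at 6 months against 3 weeks and 0.21 at 6 months against E18; ribosomal protein scaling by 0.61 at 3 weeks against E18 and 0.65 at 6 months against E18; and protein-coding scaling by -0.20, -0.11 and -0.30 at 3 weeks against E18, 6 months against 3 weeks and 6 months against E18. The other pathway genes higher at E18 against E14 numbered 15 with a pseudocount of 0.1, 1 at 4-fold and 3 when scaled to ribosomal protein genes. Those higher at 6 months against 3 weeks numbered 3 with a pseudocount of 0.1, and those lower 8 with a pseudocount of 0.1, 2 under median-of-ratios scaling and 0 at 4-fold. At 3 weeks against E18, 2 were lower with a pseudocount of 0.1 and 2 under protein-coding scaling; at 6 months against E18, 10 were higher at 4-fold and 1 was lower under protein-coding scaling. No called value changed sign under any alternative run. Leaving out a library was run for the filter and for the nearest patterns, with E14 as the library left out; for the patterns and the other pathway genes this was chosen after seeing the data. No paired analysis was possible because each stage has 1 library. At E14 the members rest on 2 to 22 reads, so their ratios to that library have wide intervals.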

Other observations

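Helicases related to DDX4 and MOV10L1 did not share 1 pattern. DDX3X, the widely expressed relative of DDX4, had 25.1, 24.1, 12.3 and 3.50 RPKM at E14, E18, 3 weeks and 6 months, and MOV10, the widely expressed relative of MOV10L1, had 3.34, 5.40, 2.69 and 1.56 RPKM. DDX4 accordingly stood at 13.9 times DDX3X at 6 months (12.8 to 15.1) and 0.111 times at E18 (0.0978 to 0.126). MOV10L1 stood at 2.67 times MOV10 at 6 months (2.32 to 3.07), 4.23 times at 3 weeks (3.83 to 4.69) and 0.114 times at E18 (0.0906 to 0.142). The testis relatives D1PAS1 and DDX25 were high after birth, D1PAS1 with 0.424, 0.309, 16.7 and 14.6 RPKM and DDX25 with 0.949, 1.20, 42.2 and 50.6 RPKM over the 4 stages. D1PAS1 is a copy close in sequence to DDX3X, so its value is uncertain.

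SPOCD1, DNMT3L and TEX19.1 were the 3 of the 27 other pathway genes with their highest value at E18, where PIWIL4 also had its own; they were picked here after their values were seen. SPOCD1 had 0.0633, 2.06, 0.638 and 1.49 RPKM at E14, E18, 3 weeks and 6 months, and DNMT3L, a cofactor of DNA methyltransferases, had 0.0946, 1.21, 0.177 and 0.776 RPKM. Both had more at 6 months than at 3 weeks, which PIWIL4 did not. TEX19.1 had 3.60 RPKM at 3 weeks and 3.78 RPKM at E18. NANOS2, a fetal male germ cell regulator, never exceeded 0.123 RPKM.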
